A study of Xenopus tropicalis with 11 samples.

Results

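The regions described here are the sites where Foxh1 was found at stage 9 of the frog Xenopus tropicalis and in no other peak list of the study. Peaks of all 6 deposited lists that shared at least 1 base were merged into regions, and a region was kept when it held a stage 9 Foxh1 peak and no peak of stage 8 Foxh1, gastrula Foxh1, stage 8 Tle, stage 10.25 Foxa or gastrula Smad2/3. Of 88697 regions, 5776 met this rule (6.51%, Wilson 95% interval 6.35 to 6.68%), and they are called lone stage 9 regions below. They were thus chosen by the peak calls of these same lists, and their absence from the other 5 is the choice and not a result. They made up 19.5% (19.0 to 19.9%) of the 29679 regions with stage 9 Foxh1 and 48.4% (47.5 to 49.3%) of the 11939 regions with Foxh1 at stage 9 alone.

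Foxh1 is a forkhead transcription factor that the egg supplies to the embryo. It binds DNA directly and is best known as the partner that brings Smad2/3, the effectors of Nodal signalling, to enhancers of mesendoderm genes. Tle is a Groucho-family co-repressor that has no DNA-binding domain of its own and is brought to DNA by other factors. Foxa proteins, also of the forkhead class, act in endoderm and organizer and can bind closed chromatin. Zygotic transcription begins in the blastula, to which stages 8 and 9 belong, and gastrulation follows.

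DNA bound by each factor was recovered by chromatin immunoprecipitation and sequenced (ChIP-seq) from whole Nigerian-strain embryos, with no genotype or treatment named besides fixation, so each list averages over all cells of the embryo. The Foxh1 lists of stages 8 and 9 came from the custom antibody xtFoxh1 and each joins 2 replicates, Tle (stage 8) and Foxa (stage 10.25) came from Santa Cruz antibodies and 1 library each, the Tle library by another kit, and the lists of gastrula Foxh1 and Smad2/3 rest on samples of an earlier series. Of the 11 samples, 4 have a peak list, and the 7 RNA polymerase II and input samples were not analysed here. With 1 list per factor and stage there is no spread between replicates and no test over samples. Intervals cover the counting of regions only, and the sequencing depth is unknown.

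The rule reads absence from a list, so the length of each list bears on it. The 6 lists held 28611 peaks for stage 8 Foxh1, 29935 for stage 9 Foxh1, 37919 for Tle, 40925 for Foxa, 1290 for gastrula Foxh1 and 480 for Smad2/3. The short lists of gastrula Foxh1 and Smad2/3 hold few peaks that could have removed a stage 9 region. Absence from any list does not show that the factor was not bound. Other factors that may share these sites were not profiled, so "lone" refers to these 6 lists. Each lone region consisted of exactly 1 stage 9 peak. Genes near the regions are not named, because no annotation of the build of the lists was used here.

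Lone stage 9 regions were found mostly in the lower part of the stage 9 list. The authors' score of a Foxh1 peak is 10 times the −log10 p of the peak caller, and the fold enrichment compares the peak with its local background. The median score of the lone regions was 355 (exact binomial 95% interval of the median 354 to 357), with quartiles of 296 and 461 and a range of 256 to 1424. The median over the 23903 other regions with stage 9 Foxh1 was 589 (584 to 598). The median fold enrichment was 12.7 (12.6 to 12.8) in the lone regions, with quartiles of 11.2 and 15.4 and a range of 4.79 to 36.2, and 17.0 (16.8 to 17.1) in the others. A randomly drawn other region had the higher score with a probability of 0.759 and the higher fold with a probability of 0.710. These values describe the list that the rule itself used, so they have no test. Against stage 9-only regions with Foxa and no Tle, with a median fold of 13.9 (13.7 to 14.0), the lone regions stood at -1.25 (-1.45 to -0.882, from the bounds of both medians). At like score the order was the other way. The median fold of the lone regions was the higher in all 10 score deciles described next, with 10.7 against 9.96 in the lowest, 15.8 against 14.8 in the fifth and 24.3 against 22.7 in the eighth, and the highest decile holds 1 lone region. Other classes without Foxa stood close to the lone regions. In the fifth decile, regions of stages 8 and 9 had 15.6 without partner and 15.5 with Tle, and 14.2 with Foxa. In the second decile, lone regions and regions of stages 8 and 9 without partner both had 11.7.

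The share of lone regions was lower in each step up the score ranking. All 29679 regions with stage 9 Foxh1 were cut into 10 parts of like size by score. In the lowest decile 1206 of 2968 regions were lone (40.6%, 38.9 to 42.4%), in the fifth decile 684 (23.0%) and in the ninth 46 (1.55%). In the highest decile, with scores of 1275 and above, 1 of 2967 was lone. The lowest 2 deciles held 2275 of the 5776 lone regions (39.4%), where 20% of all regions stand by construction. The lowest 5 deciles together held 4769 of them (82.6%). Regions of stage 9 alone that carried Foxa and no Tle kept a share between 17.3 and 19.0% over the 7 lowest deciles, and were lower above them, with 1.85% in the highest. Regions with Foxh1 at stages 8 and 9 and no partner peaked in the sixth decile, at 21.3%.

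**Figure D1:**
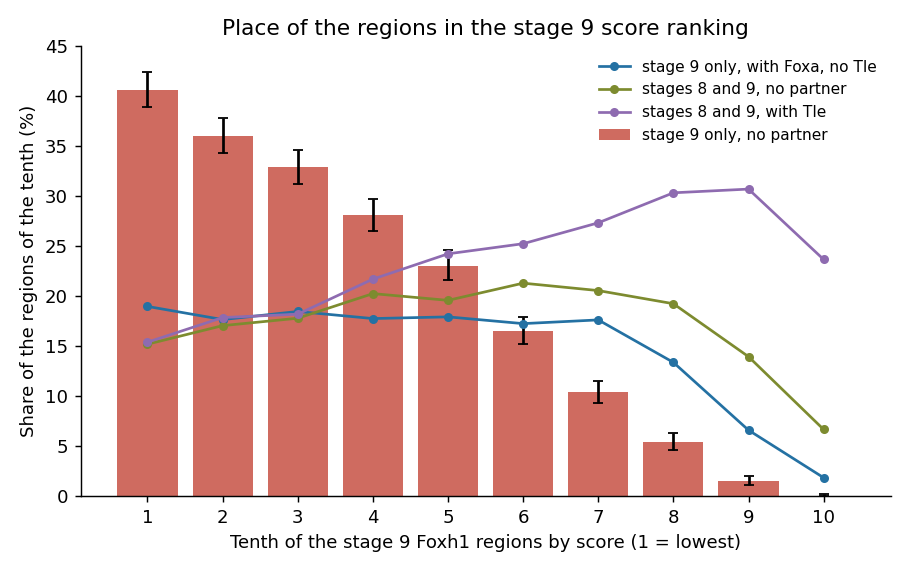
Share of the regions of each score decile that are lone stage 9 regions (bars, with Wilson 95% intervals) or belong to 3 other classes (lines), with the decile of the stage 9 score on the horizontal axis. The bars drop from 40.6% in the lowest decile to 1 region in the highest, while the class with Foxa stays level over the 7 lowest deciles.

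The stage 9 list reaches lower −log10 p values than the stage 8 list, whose lowest value is 32.0. Of the lone regions 2130 (36.9%, 35.6 to 38.1%) had a stage 9 value under that limit, against 18.3% of all regions with stage 9 Foxh1. The share was 22.6% (21.4 to 23.9%) among stage 9-only regions with Foxa and no Tle and 17.1% (16.1 to 18.1%) among regions of stages 8 and 9 without partner. The other 3646 lone regions lay at or above the limit. The 2 limits come from libraries of unknown depth and show only where each list ends.

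Lone regions were also narrow. Their median width was 219 bases (217 to 221), with quartiles of 191 and 260 and a range of 129 to 720. The other regions with stage 9 Foxh1 had a median of 317 (315 to 319). Of the lone regions 1881 were under 200 bases wide (32.6%), against 12.5% of all regions with stage 9 Foxh1. The summit lay near the middle, with a median distance of 11 bases from it and quartiles of 4.5 and 22. A narrow peak also has fewer bases with which to meet a peak of another list, so width is not independent of the rule.

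At like score, the width of lone regions stood close to that of regions without Tle or Foxa at both blastula stages and below that of regions with a partner. In the lowest decile the median width was 198 bases in the lone regions, 205 in regions of stages 8 and 9 without partner, 237 in regions of stages 8 and 9 with Tle, and 264 in stage 9-only regions with Foxa and no Tle. In the fifth decile the same classes measured 234, 237, 283 and 309 bases. In the eighth decile they measured 276, 280, 342 and 376 bases. The order between the lone regions and the class of both blastula stages without partner was not the same throughout, since both measured 212 in the third decile and 260 and 257 in the seventh. Among these 4 classes, the regions without Tle or Foxa were thus the narrower ones at like score, with or without stage 8 Foxh1. All 4 classes were set by overlap, which a wider peak meets more readily. Cutting by score does not remove that, so this order is a description and not a finding about partners.

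**Figure D2:**
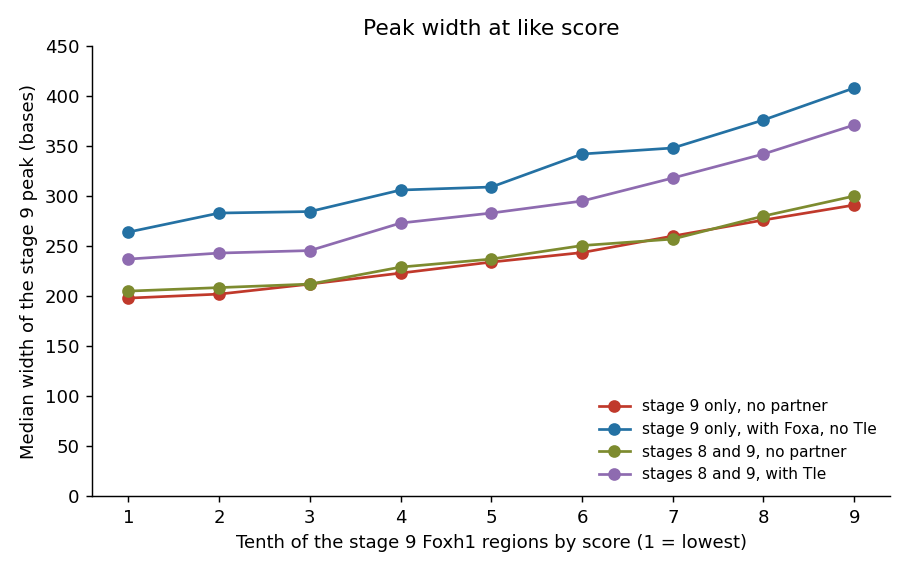
Median width of the stage 9 peak, in bases, by decile of the stage 9 score for 4 classes of regions. The 2 classes without partner run together from about 200 to 300 bases, and the classes with Tle or Foxa lie above them in all 9 deciles shown. The classes were set by overlap, which a wider peak meets more readily. The highest decile is left out because it holds 1 lone region.

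The 10 lone regions of highest fold enrichment lay on 8 scaffolds and had scores among the 16 highest of all lone regions. Of these 10, 6 were on the 10 longest scaffolds, which held 92.8% of all lone regions. The highest was on scaffold 497 at 27929 to 28203, with a fold of 36.2 and a score of 1424, and was the single lone region in the highest decile. Its nearest peak of another list was a Foxa peak 4167 bases away, and no stage 8 or gastrula Foxh1 peak was listed on that short scaffold. The second was on scaffold 1 at 116689208 to 116689461 (fold 34.6, score 1224), with a Foxa peak 702 bases away. The third was on scaffold 8c at 2415814 to 2416089 (fold 33.6, score 1172), where no peak of another list came nearer than 41957 bases. The nearest other lone region was 439709 bases from it, and its gap to the remaining stage 9 Foxh1 regions is not given here.

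The fourth to seventh by fold were on scaffold 1 at 195079940 to 195080287 (fold 33.6), on scaffold 5 at 44868654 to 44868929 (33.3), on scaffold 5 at 117734226 to 117734656 (33.1) and on scaffold 75 at 115493 to 115772 (33.1). The last 3 shared a score of 1154. The nearest other list was Foxa for 3 of these 4 regions, at 6535, 4328 and 2725 bases, and stage 8 Foxh1 for the one on scaffold 5 at 44868654, at 12656 bases. The next were on scaffold 8 at 66294414 to 66294634 (32.6), on scaffold 113 at 137058 to 137522 (32.3) and on scaffold 3 at 94004224 to 94004594 (32.1). The one on scaffold 3 had peaks of 3 lists close by without touching them, with Foxa at 636 bases, Tle at 664 and stage 8 Foxh1 at 670. The region on scaffold 8 had Tle at 500 bases and stage 8 Foxh1 at 767. In all, 3 of the 10 had a peak of another list within 1000 bases.

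The 5 further regions of highest score had folds between 28.6 and 31.9. They lay on scaffold 1 at 140074818 to 140075513, on scaffold 4 at 96393607 to 96393900, on scaffold 6 at 50123744 to 50124084, on scaffold 3 at 42694764 to 42695119 and on scaffold 7 at 72756911 to 72757453. The first was 696 bases wide, among the widest of the lone regions, whose range ends at 720. The one on scaffold 7 had another lone region only 88 bases away and a Tle peak at 502 bases.

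Regions at the middle of the class were far weaker. The 3 nearest to the median fold lay on scaffold 1 at 164393419 to 164393604 and at 196331476 to 196331811 and on scaffold 18 at 733257 to 733512, each with a fold of 12.7 and a score of 347. Their nearest peaks of another list were Foxa at 1272 bases, stage 8 Foxh1 at 1933 and stage 8 Foxh1 at 36682. The 3 of lowest fold were on scaffold 8 at 20075558 to 20075714 (fold 4.79, score 283), on scaffold 2 at 4769794 to 4769982 (6.01, score 260) and on scaffold 3 at 70422995 to 70423220 (6.24, score 276). Typical and strongest lone regions thus differed about 3-fold in enrichment, with values of 12.7 and 36.2.

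Some regions owed their place to a few bases. The member nearest to another list, on scaffold 5 at 66622698 to 66622970 (score 722, fold 21.9), stood 1 base from a Tle peak. The next 2, on scaffold 1 at 165322921 to 165323102 and on scaffold 2 at 89780565 to 89780787, stood 3 and 4 bases from a Foxa peak. On the other side of the limit, the stage 9 peaks on scaffold 8 at 78602495 to 78602702, on scaffold 3 at 16195157 to 16195422 and on scaffold 6 at 9128537 to 9128932 were left out for overlaps of 1, 2 and 2 bases with Foxa. Such cases were few, with 9 lone regions within 10 bases of another list and 12 stage 9 peaks left out for an overlap of at most 10 bases.

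Taking all other lists together, the lone regions had a somewhat shorter median gap than a mirror class, 5008 regions with Foxh1 at stage 8 and in no other list. The median gap of the lone regions, edge to edge, to the nearest peak of any other list was 4147 bases (3939 to 4343). In the mirror class it was 4715 bases (4483 to 4944). A peak of another list lay within 1000 bases of 1212 lone regions (21.0%, 20.0 to 22.1%) and within 10000 bases of 4182 (72.4%, 71.2 to 73.5%). In the mirror class the shares were 19.9% (18.8 to 21.0%) and 69.8% (68.5 to 71.1%), so the intervals overlap at 1000 bases and lie just apart at 10000. At 52 lone regions no other list had a peak on the scaffold. The largest gap was 213989 bases. Among the 1212 with a peak within 1000 bases, the nearest was Foxa in 682, stage 8 Foxh1 in 267, Tle in 254, gastrula Foxh1 in 8 and Smad2/3 in 1.

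Foxa was the list most often near. A Foxa peak lay within 1000 bases of 827 lone regions (14.3%, 13.4 to 15.2%), where the share was 8.85% over all regions without a Foxa peak. The mirror class had a Foxa peak within 1000 bases in 353 cases (7.05%, 6.37 to 7.79%). Within 10000 bases the shares were 51.8% (50.5 to 53.1%) for lone stage 9 regions and 38.4% (37.0 to 39.7%) for the mirror class, and within 100 bases they were 0.970% (56 regions) and 0.579% (29 regions). The 958 Foxa peaks within 1000 bases of a lone region had a median score of 12.1 (11.4 to 12.7), against 10.8 in the whole Foxa list.

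For Tle the mirror class had the higher share. A Tle peak lay within 1000 bases of 455 lone stage 9 regions (7.88%, 7.21 to 8.60%), just below the 8.65% over all regions without a Tle peak. In the mirror class of stage 8 the count was 646 (12.9%, 11.999 to 13.856%), further from that share. Stage 9-only regions with Foxa and no Tle had a Tle peak that near in 445 of 4377 cases (10.2%, 9.31 to 11.1%). Within 10000 bases the shares were 43.7% (42.4 to 45.0%) for lone stage 9 regions and 49.0% (47.7 to 50.4%) for the mirror class. The lone regions of the 2 blastula stages therefore differed from each other in the neighbourhood of both Tle and Foxa, in opposite directions. The intervals did not overlap at gaps of 500 to 50000 bases, and at 100 bases they did. Neither difference has a test over samples, and neighbouring regions are not independent. The Tle library and the stage 8 Foxh1 libraries share a stage and the Foxa library is of a later stage, so factor and stage cannot be told apart.

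For Foxh1 of the other blastula stage the shares on both sides had overlapping intervals. A stage 8 Foxh1 peak lay within 1000 bases of 441 lone stage 9 regions (7.64%, 6.98 to 8.35%), where 8.88% of all regions without stage 8 Foxh1 had one. A stage 9 Foxh1 peak lay within 1000 bases of 394 mirror regions (7.87%, 7.15 to 8.65%). The median gaps were 15106 bases (14479 to 15809) and 15820 bases (15039 to 16641), and the intervals overlap.

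The gastrula lists were rarely near. Gastrula Foxh1 lay within 1000 bases of 48 lone stage 9 regions (0.831%, 0.627 to 1.10%), against 0.733% of all regions without gastrula Foxh1 and 11 mirror regions (0.220%, 0.123 to 0.393%). Stage 9-only regions with Foxa and no Tle had a gastrula Foxh1 peak that near in 94 of 4377 cases (2.15%, 1.76 to 2.62%). Smad2/3 lay within 1000 bases of 13 lone stage 9 regions (0.225%), against 0.268% of all regions without Smad2/3 and 1 mirror region. The lone stage 9 share with gastrula Foxh1 near was close to that over all regions without gastrula Foxh1, which lies within its interval, and the share of the mirror class was below it.

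**Figure D3:**
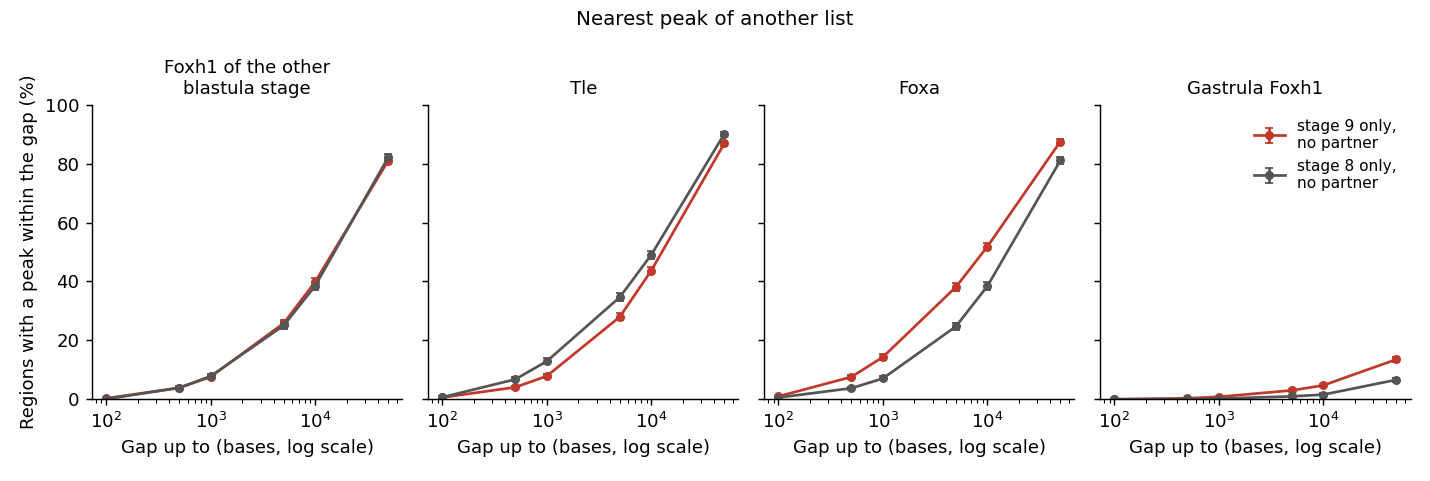
Share of lone stage 9 regions (red) and lone stage 8 regions (grey) with a peak of another list within a given gap (bases, log scale), with Wilson 95% intervals. For Foxh1 of the other blastula stage the intervals overlap at every gap, and from 500 bases on the red curve is lower for Tle and higher for Foxa and gastrula Foxh1.

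The nearness to other lists had no steady course with the strength of the lone region. In 5 parts of like size by score, the share with a Foxa peak within 1000 bases was 14.0, 13.2, 14.5, 13.6 and 16.3% from the lowest to the highest part, with intervals that all overlap. For stage 8 Foxh1 the shares were 9.60, 6.32, 8.31, 6.75 and 7.19%, and the intervals of the lowest part (8.04 to 11.4%) and the next (5.06 to 7.87%) do not overlap. For Tle they were 9.26, 8.05, 8.05, 6.23 and 7.79%.

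The names of the peaks bear on whether the region around a lone stage 9 peak was free of stage 8 Foxh1 calls, a comparison chosen after the data were examined. Each peak name ends in a number, and within all 6 lists these numbers rise strictly along the genome. The Tle and Foxa lists hold every number, whereas the stage 8 Foxh1 list holds 28611 peaks and its highest number is 128020. The missing numbers were taken as stage 8 calls left out of the deposited list, and how that list was cut is not stated. Their positions are not given, but their count in each interval between neighbouring listed peaks follows from the numbers. Of 28152 such intervals, 7249 held no unlisted call.

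Lone stage 9 regions were nearly absent from the intervals without an unlisted stage 8 call. Of the 5531 lone regions between 2 listed stage 8 peaks, 19 were in such an interval (0.344%, 0.220 to 0.536%), where the share over all regions without stage 8 Foxh1 was 2.81%. The intervals without unlisted call covered 45.1 Mb and held 0.421 lone regions per Mb (exact Poisson 95% interval 0.254 to 0.658). Those with at least 1 unlisted call covered 1257 Mb and held 4.38 per Mb (4.27 to 4.50), which is 10.4 times as many. Intervals without unlisted call were short, with a median of 1736 bases against 20856 over all intervals, so intervals of like width were compared next.

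In intervals of 5 to 20 kb there were 10 lone regions in 16.6 Mb without an unlisted call (0.601 per Mb, 0.288 to 1.11) and 112 in 21.6 Mb with exactly 1 (5.20 per Mb, 4.28 to 6.25). The density was higher with more unlisted calls, at 9.11 per Mb with 2 and 14.3 per Mb with 3 to 5. The same held in other classes. With exactly 1 and with 3 to 5 calls, stage 9-only regions with Foxa and no Tle had 5.75 and 13.8 per Mb, those with Tle 2.09 and 6.81, and regions with Tle and no other list 18.3 and 42.6. In intervals of 20 to 50 kb it was 0.139 per Mb without an unlisted call, from 2 regions, 1.98 with 1 and 3.94 with 2. In both width classes the Poisson intervals for none and for exactly 1 unlisted call did not overlap. All but 19 of the 5531 lone regions thus shared their interval with at least 1 unlisted stage 8 call. So did all but 2.81% of the regions without stage 8 Foxh1 that lay between 2 listed stage 8 peaks. The intervals around lone regions were wide, with a median of 83061 bases and a median of 7 unlisted calls. Whether a call lies at the region itself cannot be read from the numbers.

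The contrast was not particular to lone regions. Stage 9-only regions with Tle had 0.301 per Mb (0.0976 to 0.702) without an unlisted stage 8 call and 2.09 per Mb (1.52 to 2.79) with exactly 1 in intervals of 5 to 20 kb. The density with at least 1 call over that with none was 13.9 for them and 16.1 for lone regions at 5 to 20 kb, and 26.4 and 41.3 at 20 to 50 kb. At 20 to 50 kb, only 1 region of the class with Tle and 2 lone regions lay in intervals without a call. The ratio of 41.3 therefore had a wide interval, 11.4 to 341. Regions with Foxa and no other list, 28597 in all, differed less. In intervals of 5 to 20 kb they had 27.4 per Mb (25.0 to 30.1) without an unlisted stage 8 call and 31.3 per Mb with exactly 1. In those of 20 to 50 kb they had 19.9 (17.7 to 22.4) and 21.0 per Mb. With at least 1 call they had 38.3 (36.7 to 39.9) and 26.5 per Mb (25.8 to 27.3) in the shorter and longer intervals, beyond the intervals for none. The density with at least 1 call over that with none was 1.40 and 1.33. Regions with Tle and no other list also hold no Foxh1 peak, and they too were sparser without an unlisted call. They had 8.78 (7.41 to 10.3) and 18.3 per Mb (16.6 to 20.2) at 5 to 20 kb. At 20 to 50 kb they had 7.73 (6.36 to 9.30) and 10.2 per Mb (9.03 to 11.4), where the intervals overlap. With at least 1 call they had 17.9 per Mb (17.3 to 18.5) at 20 to 50 kb. Their density with at least 1 call over that with none was 3.48 at 5 to 20 kb and 2.31 at 20 to 50 kb. Stage 9-only regions with Foxa and no Tle had 1.86 per Mb (1.27 to 2.65) and 5.75 per Mb (4.78 to 6.86) at 5 to 20 kb and 0.975 (0.533 to 1.64) and 1.64 per Mb (1.20 to 2.18) at 20 to 50 kb, where the intervals overlap. Of these regions, 65 of 4239 (1.53%, 1.20 to 1.95%) lay in an interval without an unlisted stage 8 call, and of those with Tle 8 of 1727 (0.463%, 0.235 to 0.911%). The mirror class, lone stage 8 regions set in the numbering of stage 9, had 80 of 4896 (1.63%, 1.31 to 2.03%) in an interval without an unlisted stage 9 call. The interval of the share among lone stage 9 regions, 0.344%, overlaps that of the class with Tle and lies below those of the class with Foxa and of the mirror class, with no test over samples. The stage 9 list holds 30.6% of its numbers and the stage 8 list 22.3%, so the 2 numberings are not equally dense.

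**Figure D4:**
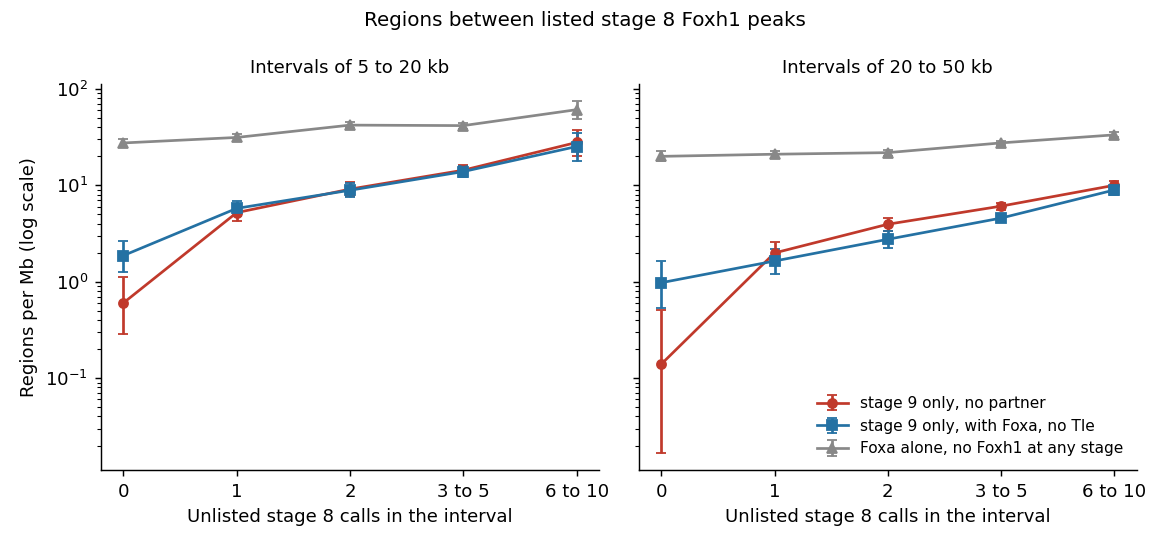
Regions per Mb (log scale, exact Poisson 95% intervals) in intervals between listed stage 8 Foxh1 peaks, by the number of unlisted stage 8 calls in the interval, for intervals of 5 to 20 kb and 20 to 50 kb. Lone stage 9 regions (red) drop from 5.20 to 0.601 per Mb in the shorter and from 1.98 to 0.139 per Mb in the longer intervals when no unlisted call is present, and regions with Foxa alone (grey) go from 31.3 to 27.4 and from 21.0 to 19.9 per Mb. With at least 1 unlisted call, regions with Foxa alone had 38.3 per Mb in the shorter and 26.5 in the longer intervals. Regions with Tle alone are not drawn, and went from 18.3 to 8.78 per Mb in the shorter intervals.

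The 19 lone regions without any stage 8 call in their interval had scores of 258 to 502 (median 303) and folds of 9.92 to 16.9 (median 12.2). The medians over all lone regions were 355 and 12.7. A score of 502 or less was common, in 4500 of the 5531 lone regions between listed stage 8 peaks. The strongest of the 19, named after its values were seen, lay on scaffold 3 at 76756453 to 76756715, with a score of 502, a fold of 16.9 and no stage 8 call over 21873 bases. The 9 of the 10 lone regions of highest fold that lie between listed stage 8 peaks had 2 to 17 unlisted calls in their intervals.

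The median gap to the nearest other lone region was 68069 bases (65164 to 71706), and 182 were alone on their scaffold. Another lone region lay within 1000 bases of 154 (2.67%) and within 10000 bases of 873 (15.1%, 14.2 to 16.1%). With gaps of up to 10000 bases they formed 376 pairs, 39 groups of 3 and 1 group of 4, and 4903 were single. The nearest of the 23903 other stage 9 Foxh1 regions, which outnumber the 5776 lone ones, was at a median of 14433 bases (13662 to 15204) and lay within 1000 bases of 618 lone regions (10.7%). The same shares over all stage 9 regions are not given here. These counts therefore do not show whether lone regions were more or less clustered than stage 9 regions as a whole.

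No window of 50000 bases held more than 5 lone regions, and 4 windows held that many. The one with the highest summed score ran on scaffold 3 at 19726688 to 19768495 and also held 3 other stage 9 Foxh1 peaks, 2 stage 8 Foxh1 peaks, 3 Tle peaks, 4 Foxa peaks and 1 gastrula Foxh1 peak. Its lone regions began at 19726688, 19728978, 19756717, 19759943 and 19768296, with folds of 13.9, 10.3, 16.2, 14.9 and 14.9. The first 2 stood 1735 bases apart, and at least 17962 bases from any other list.

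The lone regions were spread over the genome in rough proportion to stage 9 Foxh1 as a whole, with a higher share on the shorter scaffolds. On the 10 longest scaffolds they made up between 17.2% (15.9 to 18.7%, scaffold 5) and 21.4% (19.6 to 23.4%, scaffold 9) of the stage 9 regions, at 3.75 to 4.74 per Mb. The intervals of the shares on scaffolds 5 and 9 did not overlap. On all other scaffolds together the share was 24.4% (22.4 to 26.5%), with 413 of 1691 regions. Their density of lone regions was not higher, at 3.75 per Mb. Stage 9 regions as a whole stood at 15.3 per Mb there, against 18.8 to 24.6 on the 10 longest. Among the 32 shorter scaffolds with at least 10 stage 9 regions, the highest share was on scaffold 18, with 10 of 17. The share on the shorter scaffolds lay above that of 8 of the 10 longest without overlap of the intervals. Scaffolds 9 and 10 were the exceptions. The median fold of the lone regions was 13.2 on the shorter scaffolds and 12.4 to 13.0 on the 10 longest. Among the 10 longest scaffolds the share had no steady course with length, at 18.9% on scaffold 1, 17.2% on scaffold 5 and 20.9% on scaffold 10. The part of scaffold length in the share was not tested.

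**Figure D5:**
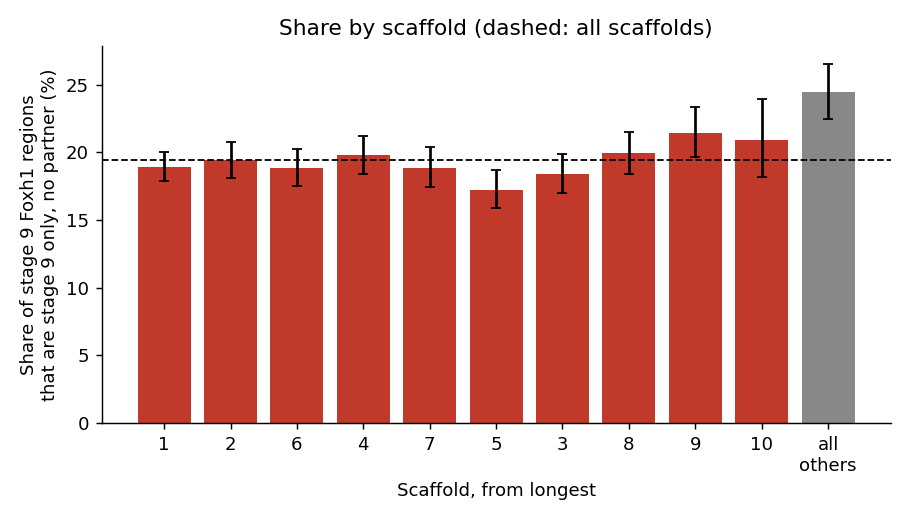
Share of stage 9 Foxh1 regions that are lone (bars, Wilson 95% intervals) on the 10 longest scaffolds and on all other scaffolds together, with the share over all scaffolds as a dashed line at 19.5%. The long scaffolds range from 17.2 to 21.4% and the shorter ones together reach 24.4%.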

How the data were processed

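The 6 deposited peak lists were used as they are. MACS2 2.0.10, HOMER 4.7, Bowtie 1.0.0 and SAMtools are named in the submitters' processing notes without their roles. Not given in the sources used here are the genome build, the controls and the thresholds. The deposited score and −log10 p of Foxh1 and Smad2/3 peaks, their fold enrichment over local background (a ratio) and their summit come from the authors' peak caller. Tle and Foxa lists carry the authors' score alone. These values were compared within 1 list, except that stage 9 −log10 p values were set against the lowest of the stage 8 list, to show where each list ends.

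Peaks sharing at least 1 base were merged, and a region took the values of its highest-scoring stage 9 peak. Gaps were measured edge to edge and coordinates count from 1. The extent of a scaffold is its furthest peak end. Shares have Wilson 95% intervals, medians exact binomial ones and densities exact Poisson ones, all for counting error only. No test was run, since each factor and stage has 1 list. Merging and gaps were tested on simulated data. The regions and classes were chosen with earlier results of these data known. Named regions are the 10 of highest fold, 5 further of highest score, 3 around the median fold, 3 of lowest fold, 3 with the smallest gap and those of the densest window. Motifs were not analysed here, because no genome of that build was used. The work was done in Python 3.11.15 with pandas 2.3.3, scipy 1.17.1, numpy 2.4.6 and, for the plots, matplotlib 3.10.9.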

Additional observations from a re-analysis of the deposited data

How the results depend on the processing

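Each list stands for 1 factor and stage, read depth is unknown, and the rule reads absence, so longer or shorter lists move the counts. No paired analysis was possible because no replicate has a list of its own, and for the same reason none was left out. Motifs were not run for want of a genome. No median difference changed sign. Of 90 values 45 counted as moved, which means outside the 95% interval of the main value or, for numbers of regions, over 1.5 times away. By that wide limit the numbers 7086 (centres), 7202 (50% overlap) and 4564 (within 1000 bases) against 5776 did not count as moved. Values below follow the order share of stage 9 regions, median fold, score and width, share near another list (within 1000 bases) and share with another lone region within 10000 bases.

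With centres within 100 bases as sharing, they were 23.7%, 12.9, 365, 229, 35.6% and 20.0%, and the score stood at -164 relative to regions of both blastula stages without Tle or Foxa. With overlap of 50% of both peaks, they were 24.1%, 12.9, 363.5, 226, 36.6% and 20.0%, and the score differences were -165.5 to those regions and -92.5 to stage 9-only regions with Foxa and no Tle. Both of these settings keep all 5776 main regions and add peaks that overlap another list. The share near another list is therefore higher by construction. With the upper 50% of the stage 9 list, 1016 regions were left, with 6.81%, 19.1, 618, 256, 22.6% and 4.13%, and 91.7% on the 10 longest scaffolds. Their fold difference to the Foxa class was -0.316, where the main value was -1.25. The bounds from both medians were -0.844 to 0.144, on both sides of 0, and -1.45 to -0.882 for the main value. Neither range is a test of the difference. With the upper 50% of every list, 3162 regions had 21.2%, 19.6, 662, 273, 15.1% and 11.5%, differences to the Foxa class of -0.593 in fold and -105 in score, a score difference of -200 to both blastula stages, and 93.6% on the longest scaffolds. Only 1016 of these 3162 are main lone regions. The others shared a region with a weaker peak of another list that the cut removed.

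Where a peak within 1000 bases counted as shared, the share was 15.2%, the score difference to the Foxa class -71.0, and 10.7% had another lone region within 10000 bases. Above the lowest −log10 p of the stage 8 list, 3646 regions remained, with a share of 15.0%, a fold of 14.4, a score of 425, a width of 231 and 10.505% with a lone region within 10000 bases. In intervals of 20 to 50 kb the density ratio of intervals with over without an unlisted stage 8 call was 41.3 (11.4 to 341), where it was 10.4 (6.67 to 17.3) over all intervals. The 2 ranges overlap, and the ratio of 41.3 rests on 2 lone regions in intervals without a call. It had no value in the upper 50% of the stage 9 list, where no lone region was without an unlisted call.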
